A study of Mus musculus with 30 samples.

Results

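The 5 blocks described here are 5 Mb stretches of the mouse genome whose median ATAC-seq signal shifted in NIH 3T3 cells treated with CK666 for 4 h. On chromosome 4 most of the strongest windows did not follow that shift. They lie on chromosome 7 from 135 to 140 Mb, chromosome 9 from 115 to 120 Mb, chromosome 19 from 0 to 5 Mb, chromosome 4 from 75 to 80 Mb and chromosome 17 from 25 to 30 Mb. The members are the counted windows that start inside these limits, 3624 of the 369846 windows of the 4 h data, with 956 on chromosome 7, 945 on chromosome 9, 315 on chromosome 19, 526 on chromosome 4 and 882 on chromosome 17. The blocks were chosen on the measured change between the 6 NIH 3T3 libraries, so every NIH 3T3 change given for them is a description without a test. The same blocks in mesenchymal stem cells (MSCs) played no part in the choice and were tested. At 4 h the MSC windows were the same ones. The 24 h data had another set of 305931 windows, of which only 32 started in the chromosome 4 block.

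ATAC-seq uses a transposase that inserts adapters into open DNA, and here it was applied to 50000 cells per library with the Omni-ATAC protocol. The study compared cells with and without inhibitors of actin assembly in 10 groups of 3 libraries. At 4 h the groups were NIH 3T3 cells without treatment, NIH 3T3 cells with CK666, untreated MSCs and MSCs with CK666. At 24 h they were untreated MSCs, MSCs with CK666 and MSCs with cytochalasin D (CytoD), and the remaining groups were MSCs carrying control siRNA, siRNA against Arp4, or that siRNA with CK666. MSCs were grown from the marrow of C57BL/6J mice, and the labels give C57BL/6J and male for both cell types. NIH 3T3 is an immortalised fibroblast line known to come from Swiss mouse embryos, so the strain given for it may not describe the line. The labels do not say whether libraries of a group came from separate cultures, and the p-values then measure only the spread between these libraries, which may be technical.

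CK666 is a small molecule that holds the Arp2/3 complex in its inactive state and so blocks branching of actin filaments, and cytochalasin D caps filament ends. The number of transposase cuts in a window depends on how open its chromatin is and on how many copies of the DNA the cells carry. NIH 3T3 cells are aneuploid, with chromosome segments gained and lost in culture, whereas primary MSCs start from a diploid genome. These counts hold no separate measure of DNA copies or of the share of cells that carry a segment, so a change of chromatin and a change of DNA dose cannot be told apart, and nor can fewer cells of a kind and less signal per cell.

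The windows inside a block were of very different sequence, and 6 of them are shown to make that visible. All are 250 bases of the RefSeq GRCm38.p6 assembly, written 5′ to 3′ with each CG dinucleotide in capitals. The Bnip3 and Ppp6r3 promoters end at the base before the RefSeq start site and lie on the minus strand at chr7:138909507-138909756 and chr19:3575750-3575999. The GENCODE start of Bnip3, at 138909519, lies inside the stretch shown. The others are the centres of windows on the plus strand, at chr7:138752292-138752541 near Gm30808, chr9:116152956-116153205 in an intron of Tgfbr2, chr19:3839738-3839987 in an intron of Gm16066 and chr4:78235943-78236192 near Gm11260. The first 3 lay in blocks that went down, the next pair in the block of chromosome 19 that went up, and the last is the window of chromosome 4 that went most against its block.
Bnip3 promoter: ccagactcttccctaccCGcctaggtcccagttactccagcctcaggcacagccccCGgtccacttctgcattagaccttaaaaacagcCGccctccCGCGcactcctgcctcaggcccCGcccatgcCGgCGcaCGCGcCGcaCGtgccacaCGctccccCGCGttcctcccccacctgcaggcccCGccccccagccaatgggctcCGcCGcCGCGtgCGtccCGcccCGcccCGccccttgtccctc
chromosome 7 window near Gm30808: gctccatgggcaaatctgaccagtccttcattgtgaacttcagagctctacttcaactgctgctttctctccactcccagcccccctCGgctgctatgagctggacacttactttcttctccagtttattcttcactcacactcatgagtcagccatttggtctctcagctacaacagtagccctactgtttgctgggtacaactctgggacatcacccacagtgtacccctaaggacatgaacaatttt
Tgfbr2 intron window: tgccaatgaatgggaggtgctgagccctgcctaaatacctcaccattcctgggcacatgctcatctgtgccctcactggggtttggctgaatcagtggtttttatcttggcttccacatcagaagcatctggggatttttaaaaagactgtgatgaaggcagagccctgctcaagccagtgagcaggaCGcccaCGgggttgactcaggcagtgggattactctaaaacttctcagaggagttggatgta
Ppp6r3 promoter: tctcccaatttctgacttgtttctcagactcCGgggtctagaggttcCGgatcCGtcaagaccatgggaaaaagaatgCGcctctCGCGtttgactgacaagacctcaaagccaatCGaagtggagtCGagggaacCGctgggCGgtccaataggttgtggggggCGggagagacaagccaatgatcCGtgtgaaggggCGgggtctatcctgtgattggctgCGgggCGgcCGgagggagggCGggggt
Gm16066 intron window: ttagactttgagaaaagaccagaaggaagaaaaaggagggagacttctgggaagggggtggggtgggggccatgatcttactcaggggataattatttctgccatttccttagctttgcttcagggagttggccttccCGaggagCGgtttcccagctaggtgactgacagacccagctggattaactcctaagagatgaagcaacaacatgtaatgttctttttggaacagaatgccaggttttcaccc
chromosome 4 window near Gm11260: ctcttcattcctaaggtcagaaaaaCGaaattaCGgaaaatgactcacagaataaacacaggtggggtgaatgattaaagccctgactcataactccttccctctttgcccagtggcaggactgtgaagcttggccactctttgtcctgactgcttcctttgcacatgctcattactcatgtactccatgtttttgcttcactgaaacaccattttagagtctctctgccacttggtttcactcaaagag
The Bnip3 promoter held 24 CG dinucleotides and the Ppp6r3 promoter 17, whereas the chromosome 7 window near Gm30808 held 1 and the Tgfbr2, Gm16066 and Gm11260 windows held 2 each. The 7 letters of the AP-1 motif, TGACTCA, occurred once near Gm30808, once in the Tgfbr2 intron and 2 times near Gm11260 on either strand, and in neither promoter. The GC box letters GGGCGG occurred 6 times in the Bnip3 promoter and 5 times in the Ppp6r3 promoter, and in none of the 4 windows.

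Read totals ran from 14496058 to 23146416 in NIH 3T3 with CK666, from 24368857 to 27866363 in NIH 3T3 without it, from 29239381 to 34979833 in the 4 h MSC libraries and from 14071301 to 22352180 in the 24 h MSC libraries used. Windows at the start sites of 10 fibroblast and MSC genes, such as Col1a2, Vim and Twist1, had a mean of at least 20 normalized counts for 10 of 10 in NIH 3T3 controls and for 9 of 10 in MSC controls, where Thy1 was the exception. Of 5 marrow MSC genes, 4 had a mean of at least 20 in each cell type, with Lepr below it in MSCs and Alpl in NIH 3T3. Of 5 blood genes, Csf1r and Cd68 passed that level in both cell types, at 205 to 209 and 78.6 to 96.2 in NIH 3T3 and 135 to 179 and 76.7 to 140 in MSCs, with sums over the list of 284 to 305 and 212 to 319. Of 3 endothelial genes, Tek stood at 45.3 to 90.8 in NIH 3T3 and 86.6 to 96.0 in MSCs, and Cdh5 passed only in NIH 3T3, with sums over the list of 81.7 to 155 and 102 to 118. No window was counted at the start sites of the blood genes Ptprc, Spi1 and Itgam or of the epithelial genes Epcam and Cdh1, so these could not be checked. The siRNA libraries were not analysed by position, because their columns did not follow the order of the region names: their rank correlation with the untreated columns lay between -0.00175 and 0.000787 over windows. Over all 195173 NIH 3T3 windows averaging 20 normalized counts or more, the median log2 difference between CK666 and control was -0.07 with TMM scaling and 0.04 with scaling by total counts, so a shift of that size moves every value below together.

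The blocks of chromosomes 7 and 9 went down. On chromosome 7, the 490 windows with a mean of at least 20 counts had per-library medians of -0.59, -0.49 and -0.51 in the CK666 libraries, as log2 ratios to the mean of the 3 controls, against 0.04, -0.05 and 0.02 in the control libraries. The mean difference was -0.53 on the log2 scale, a ratio of 0.692. Its summed counts, scaled to the size of the library (CPM), were 1991, 2198 and 2102 with CK666 and 3204, 2910 and 3151 without it. All 3 treated libraries were below all 3 controls, and the gap between the groups was much wider than the spread inside either of them, with SDs of 0.06 and 0.05 (n = 3 each).

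The block of chromosome 9 had medians over 474 windows of -0.60, -0.41 and -0.48 with CK666 and of 0.03, -0.08 and 0.04 in the controls. The mean difference was -0.49, a ratio of 0.711. Its summed counts were 1820, 2030 and 1892 CPM with CK666 and 2830, 2549 and 2812 without. The groups did not overlap, and the second control, the lowest of the controls here, was also the lowest on chromosome 7.

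The blocks of chromosomes 19, 17 and 4 went up. On chromosome 19 the 173 windows had medians of 0.55, 0.52 and 0.52 with CK666 and of -0.01, 0.08 and -0.04 without, a difference of 0.52 and a ratio of 1.43. Its sums were 1034, 1026 and 1023 CPM with CK666 against 710, 728 and 683 without. The 3 treated libraries lay closer to each other here than in any other block, with an SD of 0.02. On chromosome 17 the 481 windows had medians of 0.39, 0.34 and 0.39 with CK666 and of 0.0018, 0.05 and -0.07 without, a difference of 0.38 and a ratio of 1.30. Its sums were 2408, 2313 and 2377 CPM against 1790, 1815 and 1708. Again the treated libraries lay close together and none reached the range of the controls.

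The block of chromosome 4 was the least even. Its 179 windows had medians of 0.60, 0.22 and 0.31 with CK666 and of 0.01, -0.08 and 0.05 without, a difference of 0.38 and a ratio of 1.30. The sums were 724, 575 and 604 CPM with CK666 and 457, 470 and 495 without. The first CK666 library stood well above the other 2, giving an SD of 0.20, and without it the difference was 0.27. That library was also the shallowest of the 6, with 14496058 reads, and the part of depth in its value was not tested.

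**Figure D1:**
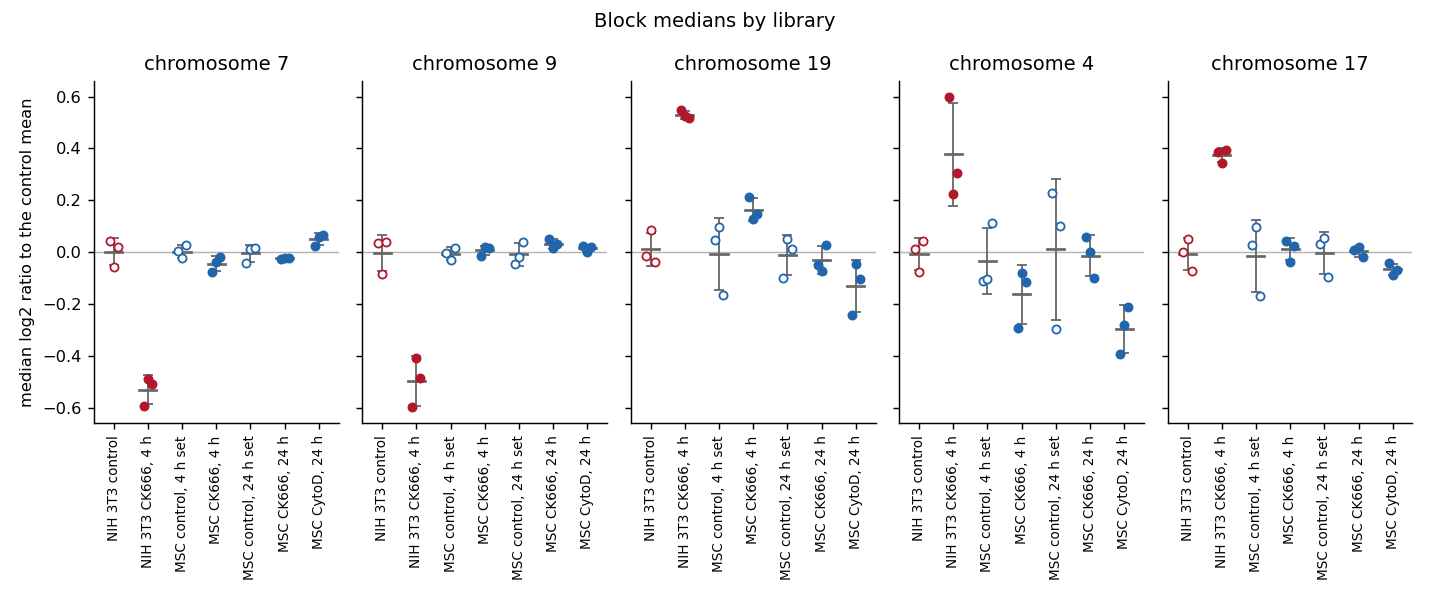
Median log2 ratio to the control mean (y axis, log2 scale) over the windows of each block, 1 panel per block, in each library of 7 groups (x axis). Points are libraries, open for controls, red for NIH 3T3 and blue for MSCs, and the horizontal lines with bars are the mean and SD of 3 libraries; the red CK666 points stand apart from the red controls in each panel, at a mean of -0.53 on chromosome 7 and 0.53 on chromosome 19, while the blue points of treated and control libraries at 4 h overlap on chromosomes 7, 9, 4 and 17.

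Set among all 523 NIH 3T3 bins of 5 Mb that held at least 20 usable windows, chromosome 7 had the largest absolute difference, chromosome 19 the next and chromosome 9 the third, while chromosomes 4 and 17 ranked 15 and 16. In all 5 blocks the CK666 and control libraries did not overlap, but that was also so in 302 of the 523 bins, or 57.7%. The other 518 bins had a median difference of -0.08 with 5th and 95th percentiles of -0.30 and 0.17, and 372 of them were below 0. There were 18 other bins at or beyond 0.35 in either direction. Just outside the choice lay chromosome 7 from 130 to 135 Mb and chromosome X from 160 to 165 Mb, at -0.45 each, and chromosome X from 85 to 90 Mb, at -0.42 from 36 windows. The chromosome 7 bin adjoins the chosen block. On its other side chromosome 7 from 140 to 145 Mb stood at -0.36, and chromosome 19 from 5 to 10 Mb, next to that block, at 0.39, slightly above the chosen blocks of chromosomes 4 and 17. In MSCs the same comparison at 4 h gave no bin at or beyond 0.35 among the other 518, which ran from -0.31 to 0.28.

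**Figure D2:**
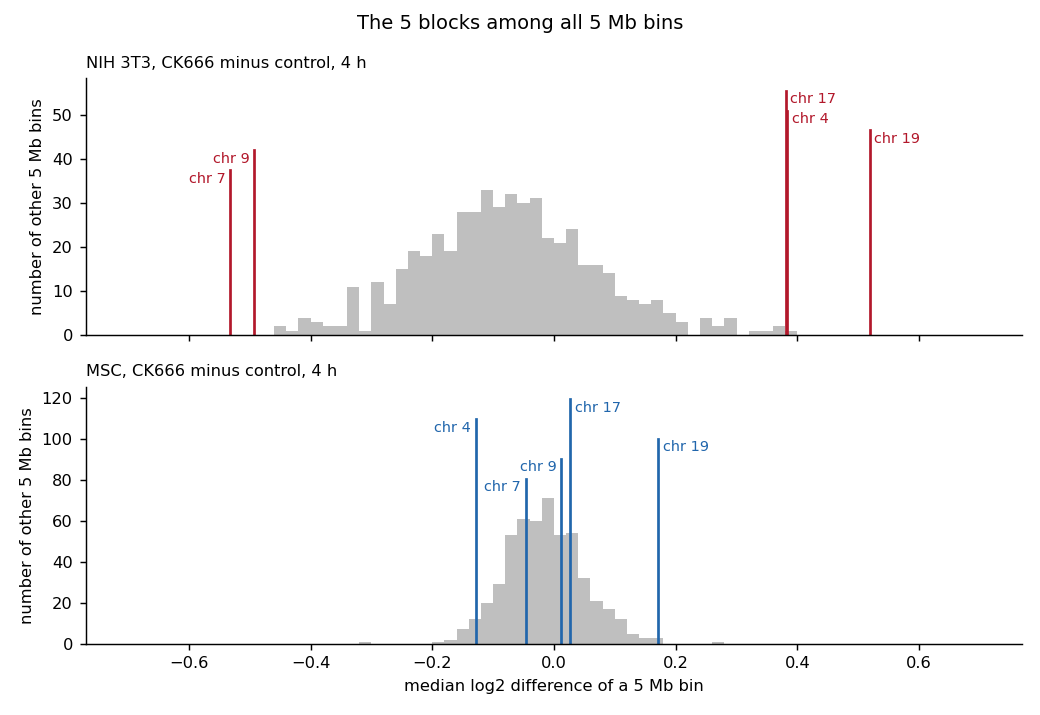
Number of other 5 Mb bins (y axis) by their median log2 difference between CK666 and control at 4 h (x axis), in NIH 3T3 (top) and MSCs (bottom), with the 5 blocks as coloured lines whose heights carry no value. The NIH 3T3 lines lie at -0.53 and -0.49 on the left and at 0.38, 0.38 and 0.52 on the right, near or past the ends of the grey distribution, while the MSC lines lie between -0.13 and 0.17.

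The edges of the change did not follow the limits of the bins. An edge was placed where the median of a 500 kb bin, followed outward from the most extreme bin inside the block, first fell under 50% of the block's own median, with bins of under 5 windows passed over. On chromosome 7 the run went from 129.5 to 138 Mb, with the extreme of -0.62 at 137 Mb, and the bins just outside stood at -0.13 and -0.17. The bin that ended it lay inside the block and held only 10 windows, and beyond it the values returned to between -0.25 and -0.64 as far as 144.5 Mb, so a limit of 25% carried the run to 144.5 Mb. On chromosome 9 it went from 116 to 120 Mb, between bins at -0.11 and -0.23, the former with 12 windows. That bin lay inside the block, and before it the values were again past the limit, at -0.48, -0.44 and -0.39 at 115, 114.5 and 114 Mb.

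On chromosome 19 the windows begin past 3 Mb, and the run went from there to 8 Mb, where the median dropped from 0.43 to 0.20. On chromosome 17 it went from 23.5 to 29.5 Mb, between bins at 0.07 and -0.0015. The chromosome 4 run went from 73 to 80.5 Mb: at its start the median went from -0.04 outside to 0.42 inside, and at its end from 0.43 in the last bin inside to 0.03 in the first outside, which held 83 windows. With bins of 250 kb the chromosome 7 run began at 135 Mb, that of chromosome 19 ended at 7.25 Mb and that of chromosome 4 covered 75.75 to 78.75 Mb. The placement of these edges thus depended on the bin size and on the limit.

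**Figure D3:**
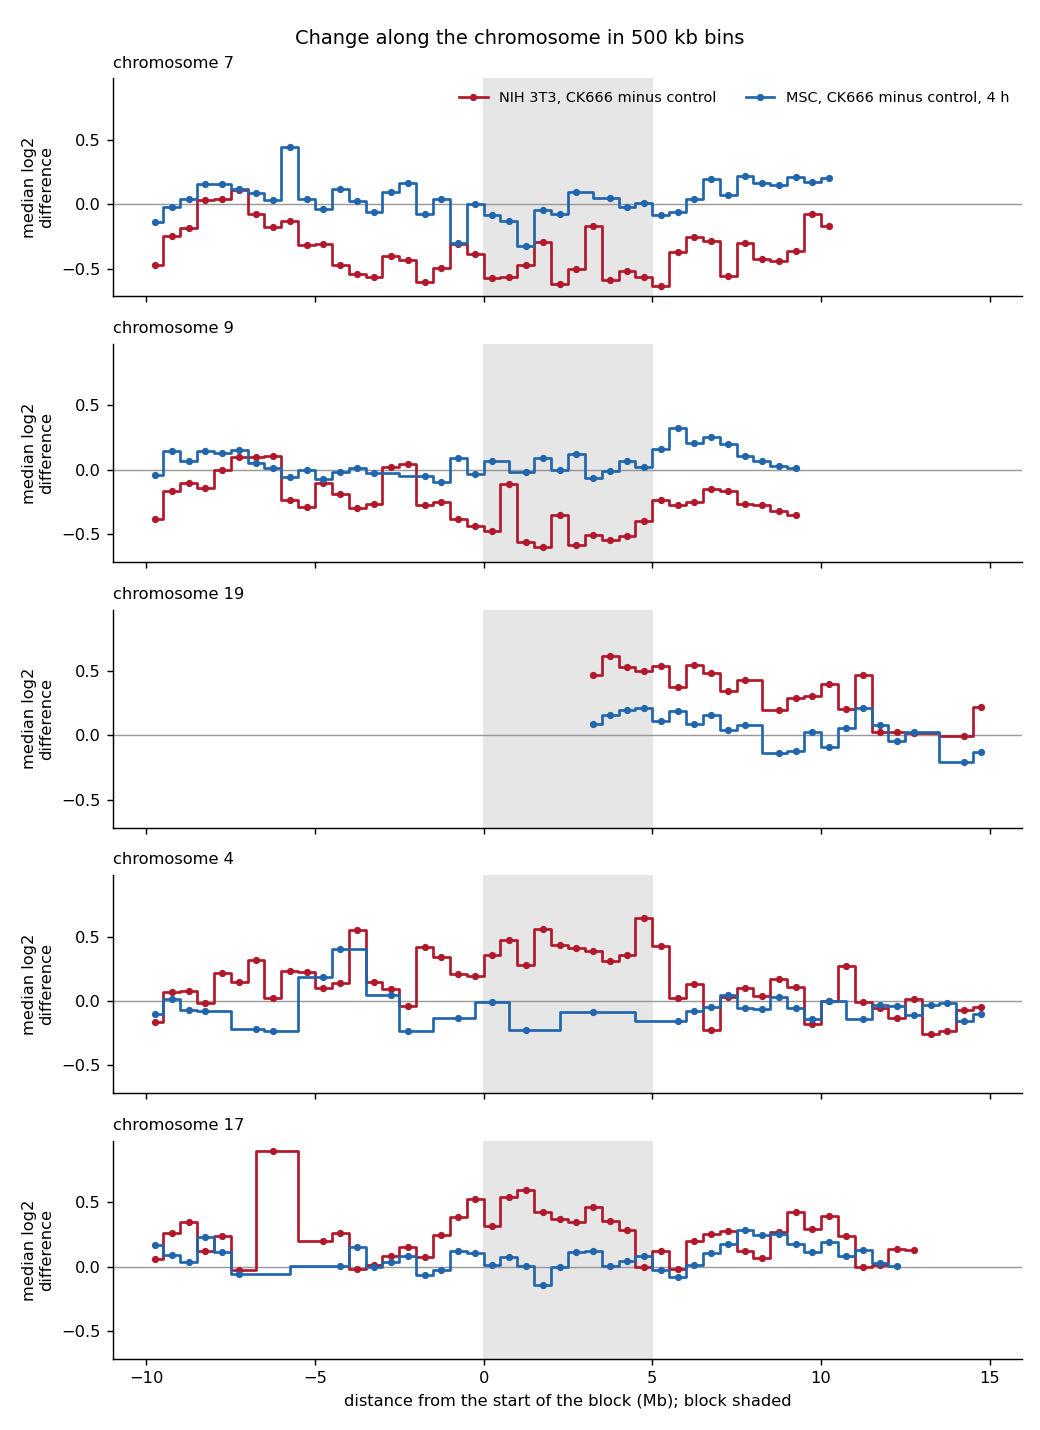
Median log2 difference between CK666 and control (y axis) in 500 kb bins of at least 5 windows, by distance from the start of each block in Mb (x axis), for NIH 3T3 (red) and MSCs at 4 h (blue), with the block shaded and bins of fewer windows passed over. The red line stays below 0 through the shaded part on chromosomes 7 and 9 and above 0 on chromosomes 19 and 4, and on chromosome 4 it drops from 0.43 to 0.03 past the block's end.

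Inside a block most windows shared the direction. On chromosome 7, 84.3% of the windows were below 0, and on chromosome 9, 81.9%, against 55.0% of the 193376 windows outside the blocks. On chromosomes 19, 4 and 17 only 6.94%, 16.8% and 15.4% were below 0. The medians of start sites and of other windows had the same sign: they were -0.62 for the 30 windows that held a transcription start site and -0.53 for the other 460 on chromosome 7, and -0.49 for 36 and -0.51 for 438 on chromosome 9. On chromosome 19 they were 0.47 for 62 windows with a start site and 0.65 for 111 without, on chromosome 4 they were 0.31 for 8 and 0.41 for 171, and on chromosome 17 they were 0.39 for 129 and 0.37 for 352.

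The size of the change varied with the signal of the window. For means of 20 to 50, 50 to 100 and 100 or more normalized counts, the median differences were -0.40, -0.59 and -0.69 on chromosome 7 and -0.39, -0.66 and -0.62 on chromosome 9. They were 0.71, 0.71 and 0.42 on chromosome 19 and 0.49, 0.35 and 0.31 on chromosome 17. Windows outside the blocks showed a slope of the same sense, at 0.05, -0.15 and -0.19. In these 4 blocks every class kept the direction of its block. On chromosome 4 it did not: the 165 windows of the lowest class had a median of 0.42, the 9 of the middle class 0.20, and the 5 strongest windows -0.22, with 4 of the 5 below 0. The positive median of that block thus came from its weak windows, and over windows with a mean of at least 50 its difference was 0.10.

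**Figure D4:**
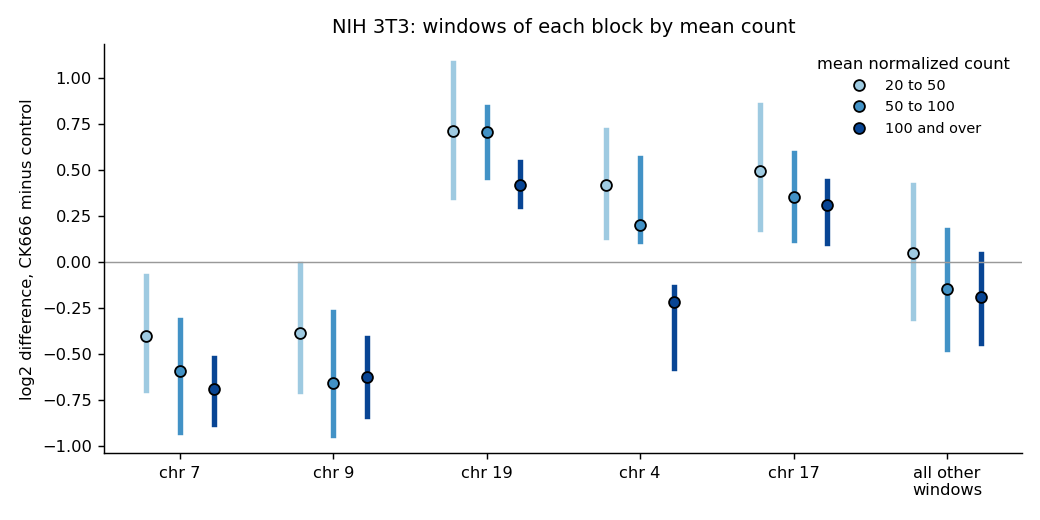
Log2 difference between CK666 and control in NIH 3T3 (y axis) for windows of each block and for all other windows (x axis), in 3 classes of mean normalized count. Points are medians and bars the middle 50% of windows; each class keeps the direction of its block on chromosomes 7, 9, 19 and 17, while on chromosome 4 the medians go from 0.42 to -0.22.

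The blocks differed in composition. The chromosome 19 and 17 blocks were gene rich, with 67 and 138 protein-coding genes starting in them, whereas chromosomes 7 and 9 had 26 and 30, and chromosome 4 had only Dmac1 and Ptprd. A start site lay in 25.1% of the windows on chromosome 19 and 19.7% on chromosome 17, but in 4.08%, 4.97% and 1.90% on chromosomes 7, 9 and 4, against 6.70% of windows elsewhere. The median GC content was 50.9% and 52.8% on chromosomes 19 and 17, 48.2% and 47.0% on chromosomes 7 and 9 and 41.4% on chromosome 4, against 45.2% elsewhere. The 3 blocks that went up thus included the most and the least GC-rich of the 5. No olfactory receptor gene started in any of them.

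A set of 4 short motifs was searched on both strands in the central 300 bases of each window. TGACTCA, the AP-1 motif, was present in 23.3% of the windows on chromosome 7, 25.5% on chromosome 9, 26.0% on chromosome 19, 16.8% on chromosome 4 and 23.5% on chromosome 17, against 24.5% of all 195173 windows. GGAATG, the core of TEAD sites, was in 18.5% to 24.0% of the windows of a block and in 21.3% of all. The GC box GGGCGG was in 22% and 21.6% of windows on chromosomes 19 and 17, against 9.51% of all, and CCAAT was in 29.1% to 44.7% against 33.2%. Windows with and without TGACTCA had medians of -0.62 and -0.52 on chromosome 7, -0.57 and -0.50 on chromosome 9, 0.48 and 0.56 on chromosome 19, 0.23 and 0.48 on chromosome 4, and 0.31 and 0.40 on chromosome 17. The direction of these blocks was therefore the same in windows with and without the AP-1 letters, and none of the 4 motifs contains another.

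Window by window, calls were made with edgeR's quasi-likelihood test over the 331963 windows tested in NIH 3T3, at a Benjamini-Hochberg adjusted p under 0.01 and an absolute log2 fold change over 1. Over the genome 1.87% of windows rose and 1.67% fell by this rule. On chromosome 7, 3 windows rose and 52 fell of 913 tested, and on chromosome 9, 2 rose and 49 fell of 877. On chromosomes 19, 4 and 17, 33 of 268, 7 of 509 and 61 of 789 rose and 0 fell. These counts describe windows that chose the blocks, so nothing is read from them beyond their direction.

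At an adjusted p under 0.05 with no fold limit, where 5.89% of windows rose and 7.26% fell over the genome, the counts were 15 up and 185 down on chromosome 7, 8 and 159 on chromosome 9, 93 and 0 on chromosome 19, 56 and 3 on chromosome 4 and 180 and 1 on chromosome 17. At the stricter limits the 5 blocks together had 106 windows up and 101 down. With total counts as library sizes the split was 143 up and 69 down, and without the third control library 133 windows were called, 52 up and 81 down.

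Most start sites of genes had the direction of their block on chromosomes 7, 9, 19 and 17. On chromosome 4, 1 of the 2 genes was higher and 1 lower. Of the protein-coding genes with a tested window at their start, 17 of 18 were lower with CK666 on chromosome 7 and 22 of 24 on chromosome 9, and 51 of 54 were higher on chromosome 19 and 105 of 111 on chromosome 17, while 51.5% of all start-site windows were higher. At an adjusted p under 0.05, 13 genes were called lower on chromosome 7 and 16 on chromosome 9, beside 8.62% of start-site windows over the genome, and 23 were called higher on chromosome 19 and 37 on chromosome 17, beside 7.12%. These windows are among those that chose the blocks, so the counts are a description and nothing is read from them. Whether the libraries of the groups overlap at a named gene is likewise a description, and the share over all windows was not counted. The genes described next are the 4 per block with the strongest start-site window in NIH 3T3, given in normalized counts.

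On chromosome 7, Bnip3, a mitochondrial protein that marks mitochondria for removal, went from 1723, 1459 and 1661 normalized counts in the controls to 1167, 1173 and 1064 with CK666, a log2 change of -0.51. Mgmt, which repairs alkylated guanine in DNA, went from 1721, 1427 and 1723 to 976, 1185 and 968, a difference of -0.64. In both genes every treated library was below every control. The uncharacterised gene 9430038I01Rik had the largest change of the 4, at -0.74, from 2678, 2047 and 2509 to 1272, 1628 and 1435. Inpp5a, a phosphatase that inactivates inositol trisphosphate, differed by only -0.21, and its groups lay next to each other, with a lowest control of 1609 and a highest treated value of 1589.

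On chromosome 9, Stt3b, a catalytic subunit of the enzyme that attaches N-glycans to proteins, went from 2377, 1979 and 2428 counts to 1573, 1744 and 1540, a difference of -0.48. Tgfbr2, the type II receptor for TGF-beta, went from 1219, 1032 and 1212 at its start site to 651, 870 and 789, a difference of -0.58. A window in an intron of Tgfbr2, the strongest of the block without a start site, went from 2105, 1699 and 2138 to 1213, 1450 and 1344, a difference of -0.57. The promoter and the intronic site of this receptor therefore moved by almost the same factor. Oxsr1, a kinase that controls ion cotransporters, differed by -0.34 with overlapping libraries, and the window shared by Acaa1a, a peroxisomal thiolase, and Myd88, an adaptor of Toll-like receptors, by -0.15, also with overlap.

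On chromosome 19, Ndufs8, a subunit of mitochondrial complex I, went from 369, 342 and 331 counts to 521, 573 and 508, a difference of 0.62. Ppp6r3, a regulatory subunit of protein phosphatase 6, went from 545, 493 and 541 to 744, 693 and 659, a difference of 0.41. Both were higher in all 3 treated libraries than in any control. Pcx, the pyruvate carboxylase that feeds oxaloacetate into the citric acid cycle, and the window shared by AC109138.7 and the cytokine gene Clcf1 differed by 0.29 each. Lrp5, a co-receptor for Wnt proteins, held the strongest window without a start site, in an intron, at 298, 316 and 277 counts in the controls and 325, 398 and 423 with CK666, a difference of 0.37.

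On chromosome 17, Axin1, a scaffold of the complex that degrades beta-catenin, went from 464, 506 and 512 counts to 641, 768 and 650, a difference of 0.47. The window shared by Cramp1l and Ift140, which encodes a protein of intraflagellar transport, differed by 0.49, that of Chtf18, part of a loader of the DNA clamp, and Rpusd1 by 0.38, and that of Capn15, of the calpain family, by 0.34. On chromosome 4 the genes did not move together. Ptprd, a receptor tyrosine phosphatase, was weak, at 47.8, 59.0 and 49.5 counts in the controls and 109, 72.6 and 71.5 with CK666, a difference of 0.67. Dmac1, needed to assemble complex I, was the strongest window of its block, at 987, 910 and 1047 in the controls and 902, 942 and 830 with CK666, a difference of -0.14 with overlapping libraries. Gm11255 and Gm11243, which are not protein-coding, were weaker still, at means of 41.5 and 32.6 counts over the NIH 3T3 libraries. They differed by 0.12 and 0.60 (SE 0.27 and 0.31).

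Single windows went far beyond their block or against it. The chromosome 7 window near Gm30808, whose sequence is given above, went from 192, 177 and 190 counts to 35.0, 35.8 and 22.6, a difference of -2.60, and the window near 4933432G23Rik on chromosome 9 from 188, 211 and 205 to 26.3, 31.7 and 42.3, a difference of -2.56. The window in an intron of Gm16066 on chromosome 19 went from 25.9, 29.9 and 25.6 to 121, 94.1 and 122, a difference of 2.04, and the start site of Rhbdl1, a gene of the rhomboid protease family, on chromosome 17 differed by 1.47. Against their blocks, among windows averaging 50 or more counts, the window near Gm45506 on chromosome 7 differed by 0.79, an intron window of Zcwpw2 on chromosome 9 by 0.70 and the window near Gm11260 on chromosome 4 by -0.81, from 589, 499 and 637 counts to 293, 343 and 344. A weaker intron window of Inpp5a on chromosome 7, chosen for its change in MSCs, went further against the block, at 2.26. The opposite windows elsewhere lay near AC109138.4 on chromosome 19, at -0.41, and near Lemd2, a gene of the inner nuclear membrane, on chromosome 17, at -0.55.

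In MSCs with CK666 for 4 h the same blocks could be tested. Without a term for replicate number edgeR called none of the 5, with 2 at an unadjusted p under 0.05 and 1 called by DESeq2, that of chromosome 19. With such a term edgeR called chromosome 19, as given at the end. Counts summed over each 5 Mb bin were tested with edgeR over 530 bins, of which 27.7% were called at an adjusted p under 0.05. The log2 differences were -0.05 ± 0.02 (SE, n = 3 per group, adjusted p = 0.0864) on chromosome 7 and -0.02 ± 0.02 (adjusted p = 0.452) on chromosome 9. On chromosome 4 the difference was -0.10 ± 0.07 (adjusted p = 0.321) and on chromosome 17 it was 0.02 ± 0.05 (adjusted p = 0.768). The exact permutation test of the block medians, two-sided, gave p = 0.2, 0.6, 0.4 and 0.9 for these 4 in turn, where 3 libraries against 3 cannot go below 0.1. The median on chromosome 4 came from only 28 windows, since most of that block had under 20 counts in MSCs. The difference between the cell types in these values was not tested.

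The block of chromosome 19 came nearest to a change in MSCs. Its medians over 188 windows were 0.21, 0.13 and 0.15 with CK666 and 0.05, 0.10 and -0.17 in the controls, so all treated libraries were above all controls (exact permutation p = 0.1, the smallest possible). The summed counts differed by 0.13 ± 0.05 (adjusted p = 0.0735 by edgeR), which missed the threshold without a term for replicate number but passed it with one. Leaving out any of the 3 controls brought it past the threshold, at 0.17 (adjusted p = 0.0489), 0.17 (adjusted p = 0.0214) and 0.07 (adjusted p = 0.0454) without the first, the second and the third control by edgeR. Leaving out any of the 3 CK666 libraries did not, at 0.10 (adjusted p = 0.233), 0.15 (adjusted p = 0.064) and 0.15 (adjusted p = 0.167) without the first, the second and the third by edgeR. The third control was the low one in this block and on chromosome 17, where it stood at -0.17 against 0.03 and 0.10. Its deviation from the mean of the controls followed GC content over the 529 bins (Pearson's r = -0.79, Spearman's rho = -0.78), and both blocks are GC rich. These bins share 1 library. The MSC change with CK666 at 4 h also followed GC content over the 529 bins (r = 0.42, rho = 0.41). The same controls enter that change. After the trend over GC content was removed from each library, the chromosome 19 medians were 0.20, 0.18 and 0.16 with CK666 and 0.03, 0.07 and -0.12 in the controls, and the difference was 0.18 against 0.17 before.

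In NIH 3T3 the change with CK666 followed GC content only weakly over 523 bins (r = 0.18, rho = 0.12), while the second control deviated upward with GC content (r = 0.56, rho = 0.53) and the third downward (r = -0.53, rho = -0.52). The second control leaned the way of the CK666 libraries in all blocks but that of chromosome 4. After the trend over GC content was removed from each library, the block differences were -0.47, -0.43, 0.57, 0.48 and 0.42 on chromosomes 7, 9, 19, 4 and 17. After a trend over the mean count was removed instead, they were -0.48, -0.42, 0.64, 0.34 and 0.47. Each block had its direction in both.

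Among single windows of the blocks in MSCs at 4 h, 17 of 2563 were called at an adjusted p under 0.01 and an absolute log2 fold change over 1, 13 up and 4 down, which is 0.663% against 1.02% over the genome. At an adjusted p under 0.05 with no fold limit there were 129, or 5.03% against 7.37%. Of the start sites, where 3.33% rose and 6.29% fell over the genome, 4 of 19 genes fell on chromosome 7, where 17 of the 19 had a negative value, and on chromosome 9 edgeR called 0 of 24, with 5 at an unadjusted p under 0.05. On chromosome 19, 3 genes rose and 1 fell of 56, and on chromosome 17, 5 rose and 1 fell of 106. Over the genome 46.1% of start-site windows had a positive value. For all windows of the 5 blocks together the called share was below that of the genome. At start sites the block counts are of protein-coding genes, with genes that share a window counted each. The genome shares are of all start-site windows, so the measures are unlike. Few genes were called in any block, and on chromosomes 9 and 4 none was, so nothing is read from these counts. They were not tested against the genome.

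Single sites inside the blocks passed the test in MSCs. The intron window of Zcwpw2 that went against its block in NIH 3T3 rose in MSCs, from 72.5, 35.7 and 59.9 counts to 181, 190 and 138, a difference of 1.60 ± 0.18 (SE, n = 3 per group, edgeR adjusted p = 7.59e-11). A window in an intron of Inpp5a rose from 54.4, 42.0 and 42.8 to 156, 124 and 111, a difference of 1.49 ± 0.19 (edgeR adjusted p = 8.63e-09), and differed by 2.26 in NIH 3T3, against its block. The Tgfbr2 intron fell by 0.27 in MSCs (SE 0.06, edgeR adjusted p = 0.000293), in the direction of its NIH 3T3 block. The Mgmt start site changed by -0.18 ± 0.05 (edgeR adjusted p = 0.0153), that of Capn15 by 0.36 ± 0.08 (edgeR adjusted p = 0.000468) and the Lrp5 intron by 0.33 ± 0.08 (edgeR adjusted p = 0.00515). The start sites of Rhbdl1 and Cramp1l also went with their block, at 0.81 and 0.25 (edgeR adjusted p = 0.00169 and 0.0199). Against their NIH 3T3 block, the windows near Gm45506, AC109138.4 and Lemd2 changed by 0.63, -0.72 and 0.68 (edgeR adjusted p = 0.000401, 0.000221 and 0.0272). Bnip3, Ppp6r3, Ndufs8 and Axin1 did not pass the test in MSCs, at -0.07, -0.02, -0.06 and -0.0014 with adjusted p-values from edgeR of 0.471, 0.912, 0.706 and 0.995.

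At 24 h, in MSCs with CK666, 22.3% of the 530 bins were called and none of the blocks was, by edgeR or DESeq2, with 0 at an unadjusted p under 0.05. The log2 differences were -0.0033 ± 0.03, 0.05 ± 0.03, -0.02 ± 0.04, 0.06 ± 0.06 and 0.03 ± 0.03 on chromosomes 7, 9, 19, 4 and 17 (SE, n = 3 per group, edgeR adjusted p = 0.954, 0.255, 0.764, 0.511 and 0.511). With total counts as library sizes chromosome 9 was called, at 0.050 (edgeR adjusted p = 0.0156). Of 2788 block windows tested, 50 passed the limits of 0.01 and 1, or 1.79% against 2.94% over the genome, and 192 passed an adjusted p under 0.05, or 6.89% against 9.5%. The largest were a window in an intron of Rbms3, an RNA-binding protein, which rose from 66.7, 81.7 and 70.6 counts to 436, 418 and 458, a difference of 2.57 ± 0.15 (edgeR adjusted p = 1.64e-25), and an exon window of Inpp5a, which rose by 2.54 ± 0.23 (edgeR adjusted p = 1.19e-14). Both lie in blocks that went down as a whole in NIH 3T3.

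CytoD at 24 h called 56% of all bins, and of the blocks only chromosome 19 was among them, at -0.12 ± 0.04 (SE, n = 3 per group, edgeR adjusted p = 0.00329). Its medians were -0.24, -0.04 and -0.10 with CytoD and -0.10, 0.05 and 0.01 in the controls, so the libraries overlapped (exact permutation p = 0.2). The direction was opposite to that of CK666 in NIH 3T3. The call was lost without the second control, at -0.09 (edgeR adjusted p = 0.0735), without the first CytoD library, at -0.08 (edgeR adjusted p = 0.105), and with total counts as library sizes, at -0.04 (edgeR adjusted p = 0.142).

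On chromosomes 7, 9, 4 and 17 the log2 differences with CytoD were 0.03 ± 0.03, -0.02 ± 0.03, -0.03 ± 0.06 and 0.03 ± 0.03, with adjusted p = 0.394, 0.625, 0.720 and 0.482 by edgeR. With total counts as library sizes 3 of these 4 were called, at 0.11 (adjusted p = 8.62e-06), 0.055 (adjusted p = 0.00556) and 0.10 (adjusted p = 0.0134) on chromosomes 7, 9 and 17 by edgeR, and chromosome 4 was at 0.050 (adjusted p = 0.522), so the signs of chromosomes 9 and 4 turned. Among windows, 62 passed the limits of 0.01 and 1, or 2.22% against 2.38%, and 238 an adjusted p under 0.05, or 8.54% against 9.88%. Without the third control the former count was 41. The strongest was in an intron of Jakmip3 on chromosome 7, which rose from 104, 102 and 111 counts to 339, 420 and 417, a difference of 1.89 ± 0.13 (edgeR adjusted p = 6.41e-21).

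How NIH 3T3 and MSCs differed without treatment is given as values without a test, since the NIH 3T3 controls took part in choosing the blocks. Relative to MSC controls, the summed counts of NIH 3T3 controls were higher by 0.08 on the log2 scale on chromosome 7 and by 1.11 on chromosome 4. On chromosomes 9, 19 and 17 the differences were -0.02, -0.52 and -0.37. For chromosome 9 the sign depended on the measure: the median over 514 windows differed by 0.19, with all 3 NIH 3T3 controls, at 0.19, 0.15 and 0.22, above the MSC controls, at 0.00096, -0.03 and 0.01, and the sums differed by 0.16 with total counts as library sizes. The sign for chromosome 7 depended on the measure too: as a median over windows with a mean of at least 50 counts it was slightly below 0. Over all 207605 windows the median difference between the cell types was -0.13 with TMM scaling and 0.08 with total counts. In CPM the chromosome 19 block held 637, 662 and 614 in NIH 3T3 and 958, 966 and 825 in MSCs, and the chromosome 17 block 1606, 1650 and 1536 against 2140, 2223 and 1840. The chromosome 4 block held 410, 427 and 445 against 195, 186 and 214. Blocks that went up with CK666 were thus lower than MSCs at the start on chromosomes 19 and 17 and higher on chromosome 4. On chromosome 4 the NIH 3T3 level was also above the MSC level on both sides of the block, as given below. With CK666 in both cell types the differences were -0.48, -0.56, -0.17, 1.58 and -0.03 on chromosomes 7, 9, 19, 4 and 17, so those of chromosomes 19 and 17 were nearer to 0, that of chromosome 4 was larger, that of chromosome 9 was further below 0 and that of chromosome 7 turned from NIH 3T3 higher to NIH 3T3 lower.

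With 500 kb bins, the level along chromosome 4 changed where the run of the response ended, but not clearly where it began. In NIH 3T3 controls the level went from 15.02 counts in the bin at 80 Mb to 24.68 at 80.5 Mb. At the start of the run, the bin at 73 Mb had 17.94, but a bin outside the run, at 71 Mb, had 17.49. With 250 kb bins the run ended at 78.75 Mb, away from the step in level at 80.5 Mb. Over all 526 windows of the block the median normalized count was 13.3, 16.3 and 15.7 in the NIH 3T3 controls, whereas the 1474 windows of the next 5 Mb had 25.4, 27.2 and 26.5 and the 899 of the 5 Mb before had 21.0, 22.7 and 23.6. In MSCs the block stood at 6.06, 4.98 and 6.06, the next 5 Mb at 9.09, 7.97 and 9.08 and the 5 Mb before at 7.07, 7.97 and 8.08. The NIH 3T3 controls were above the MSC controls inside the block and on both sides of it. Both cell types were thus lower inside the block than after it. When the NIH 3T3 libraries were scaled on their own, the CK666 libraries had 26.3, 19.4 and 20.7 inside the block and 30.6, 26.6 and 28.2 after it, against control values of 11.96, 14.5 and 14.2 inside and 22.9, 24.2 and 23.9 after. The step at the edge was smaller with CK666 than without.

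**Figure D5:**
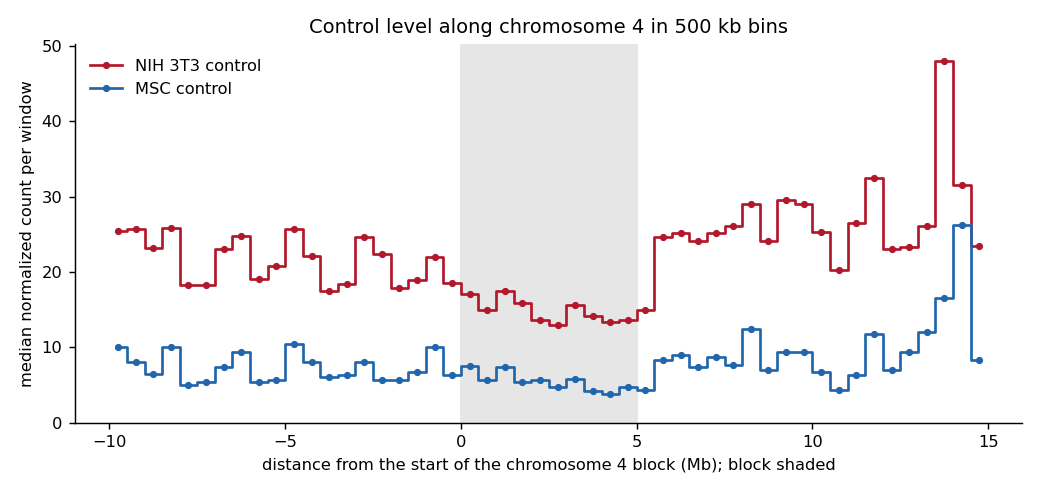
Median normalized count per window (y axis) in 500 kb bins by distance from the start of the chromosome 4 block in Mb (x axis), in NIH 3T3 controls (red) and MSC controls (blue), with the block shaded. In both cell types the level steps up just past the block's end, and the NIH 3T3 level is above the MSC level throughout.

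For the blocks that went down the level differed by side and by cell type. On chromosome 7 the NIH 3T3 controls had medians of 25.4, 25.4 and 25.5 counts inside the block, 24.3, 25.4 and 24.6 in the 5 Mb before it and 32.0, 29.0 and 28.5 in the 5 Mb after. The MSC controls had 18.2, 18.9 and 20.2 inside, 26.3, 25.9 and 26.2 before and 25.3, 26.9 and 24.2 after, so in MSCs this block was lower than both of its neighbours. On chromosome 9 the NIH 3T3 controls had 24.3, 24.5 and 25.5 inside, the same values before and 25.4, 28.1 and 27.5 after. The MSC controls had 18.2, 17.9 and 19.2 inside, 21.2, 20.9 and 21.7 before and 26.3, 26.9 and 25.2 after, again lowest inside the block. On chromosome 19 the NIH 3T3 controls had 18.8, 21.8 and 16.7 inside and 24.3, 27.7 and 24.6 in the 5 Mb after.

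Cdkn2a, a tumour suppressor gene that NIH 3T3 cells are known to have lost, is on the same chromosome as the chromosome 4 block. It lies between 89274471 and 89294653, past the block, and its 2 windows held 2 reads over the 3 NIH 3T3 controls and the 3 treated libraries, against 3449 reads over the 6 MSC libraries. How much of a difference between libraries lay in DNA copies and how much in chromatin cannot be told apart.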

How the data were processed

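Paired-end ATAC-seq reads had been processed by the authors with the PEPATAC pipeline, bowtie2 and MACS2, with mm10 named in the submitters' processing notes and tool versions not given in the sources used here. The deposited values were raw read counts per library over a union of peaks, and 0 of their sample columns were left unmapped. The members and gene lists were chosen with earlier results of these data known. Windows with a mean of at least 20 TMM-normalized counts entered the medians of log2 ratios (pseudocount 1) to the control mean. Calls used edgeR 4.0.16 in R 4.3.3 on windows passing filterByExpr and on counts summed per 5 Mb bin, without a replicate term. The test on bin sums and the test per window in NIH 3T3 were tried on simulated counts. DESeq2 1.42.0 and limma 3.58.1 served as alternatives. The comparison of untreated cell types was planned as a test but is given without p-values, since it shares the NIH 3T3 controls. Start sites came from GENCODE vM21. Genes named were the 4 per block with the highest start-site count, and windows the highest without a start site, those of largest positive and negative difference with a mean of at least 50, and up to 2 called per MSC comparison. No intervals for counting error are given for counts and shares of windows or genes.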

Additional observations from a re-analysis of the deposited data

Results flagged for a closer look

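At 4 h with CK666 the medians of the chromosome 4 block lay on opposite sides of the control mean in the cell types. Those of all 3 NIH 3T3 libraries with CK666 were above it, at 0.60, 0.22 and 0.31 on the log2 scale, and those of all 3 MSC libraries with CK666 were below it, at -0.29, -0.08 and -0.11. The mean difference between treated and control MSCs was -0.13 (log2), and the MSC controls, at -0.11, -0.10 and 0.11, overlapped the treated libraries (exact permutation p = 0.4). The MSC block passed no test, with summed counts at -0.10 (edgeR adjusted p = 0.321). The medians rest on 28 windows in MSCs and 179 in NIH 3T3, where the 5 strongest windows had a median of -0.22. The difference between the cell types was not tested.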

How the results depend on the processing

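In NIH 3T3 the 5 blocks had the same direction under each alternative tried. The values on chromosomes 7, 9, 19 and 17 were -0.43, -0.38, 0.63 and 0.49 with total counts, those on chromosomes 7, 9, 19, 4 and 17 were -0.67, -0.62, 0.45, 0.10 and 0.32 with a mean of at least 50 and -0.45, -0.39, 0.61, 0.59 and 0.50 with all windows passing filterByExpr. They were -0.44, -0.38 and 0.43 on chromosomes 7, 9 and 19 against the rest of the chromosome, 0.60 on chromosome 19 without start sites, -0.47 on chromosome 7 without the GC trend, and -0.48, 0.64 and 0.47 on chromosomes 7, 19 and 17 without the count-level trend, which was chosen after seeing the data. The cause of these moves was not tested.

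In MSCs at 4 h, chromosome 9 was 0.0012 with total counts and 0.012 by limma on medians, and chromosome 19 was 0.14 with the replicate block (adjusted p = 0.000388 by edgeR) and 0.13 by DESeq2 on sums (adjusted p = 0.0222). Leaving out replicates gave 0.066 to 0.17 on chromosome 19 and -0.052 to 0.077 on chromosome 17. In NIH 3T3, libraries of the same replicate number did not deviate together, with correlations of deviations of -0.33, -0.21 and -0.13. In MSCs at 4 h these correlations were 0.40, -0.43 and 0.44, so whether replicate numbers pair the samples there is not settled. The replicate block changed no other call. At 24 h with CK666, chromosome 9 was 0.050 with total counts (adjusted p = 0.0156 by edgeR), and leaving out replicates gave -0.030 to 0.019, -0.058 to 0.0087, -0.0039 to 0.11 and -0.011 to 0.058 on chromosomes 7, 19, 4 and 17. With CytoD, total counts gave 0.11 (adjusted p = 8.62e-06), 0.055 (adjusted p = 0.00556), -0.044, 0.050 and 0.10 (adjusted p = 0.0134) on chromosomes 7, 9, 19, 4 and 17 by edgeR, limma gave 0.024 and -0.063 on chromosomes 9 and 17, and leaving out replicates gave -0.16 to -0.083, -0.090 to 0.028 and -0.015 to 0.055 on chromosomes 19, 4 and 17.

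The NIH 3T3 to MSC level was 0.26, 0.16, -0.34, 1.29 and -0.19 on chromosomes 7, 9, 19, 4 and 17 with total counts, -0.48, -0.56, -0.17, 1.58 and -0.029 with CK666 in both, and 0.19 and 1.23 by limma on chromosomes 9 and 4. As medians with a mean of at least 50 it was -0.0090 and -0.19 on chromosomes 7 and 9. DESeq2 called 120 windows in NIH 3T3, 8 in MSCs at 4 h and 41 with CytoD, from fewer windows tested, and leaving out replicates gave 133 to 255 in NIH 3T3 and 41 to 63 with CytoD. Values for the chromosome 4 block in MSCs rest on few windows, 28 at 4 h and 13 at 24 h with a mean of at least 20 counts, against 179 in NIH 3T3. The run of chromosome 7 began at 135 Mb with 250 kb bins and ended at 144.5 Mb at 25%, that of chromosome 9 ended at 124.5 Mb at 25%, that of chromosome 19 at 7.25 Mb and 11.5 Mb, and that of chromosome 4 covered 75.75 to 78.75 Mb with 250 kb bins.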
